A study of Mus musculus with 2 samples.

Results

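Described here are 34 integrins and heart matrix genes, taken by name as cell-surface receptors and matrix proteins of the early heart wall, the cushions and the outflow tract. They comprise 10 integrin alpha subunits, 6 integrin beta subunits, 6 laminin chains, 4 other basement membrane genes, 3 genes of the hyaluronan and versican matrix and 5 fibronectin and matricellular genes. They were picked by name and function, with earlier results of these data known. In the deposited list of Isl1 ChIP-Seq peaks, 113 of 48295 peaks were assigned to these genes.

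Isl1, a LIM-homeodomain transcription factor of second heart field progenitors, was immunoprecipitated with a monoclonal anti-Isl1 antibody from cardiac mesoderm and heart regions dissected from C57BL/6 mouse embryos at E8.25-E9, with material of 60 to 80 embryos pooled. An input sample of the same stage is described in the labels, and no peak list of it was analysed. The Isl1 sample gave 1 list, which holds the position of each peak, the closest transcription start site (TSS) and the distance to it, but no height, read count or p-value. There was no second list and no mutant, so neither a replicate check nor a test between conditions could be made, depth is unknown, and every share below is a description of this 1 list. Tissue markers cannot be read from a peak list, so the dissected region was not checked against the data.

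Integrins are receptors made of an alpha and a beta subunit that tie the cell's actin skeleton to the matrix outside. Laminins, each a trimer of an alpha, a beta and a gamma chain, join collagen IV, nidogen and perlecan in the basement membrane under the myocardium and endocardium. Between these layers lies the cardiac jelly, rich in hyaluronan and versican, which swells into the cushions that later shape the valves and the septum of the outflow tract.

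Of the 34 genes, 27 had at least 1 peak assigned (79.4%, 95% Wilson interval 63.2% to 89.7%, which here and below covers counting error only). Over 20206 protein-coding genes of the same genome build, 52.8% had a peak. Peaks near the TSS were fewer: 15 of the 34 genes had a peak within 10 kb (44.1%) against 26.1% of all genes. Within 1 kb 2 had a peak, Itga1 and Fbln2, and the share of all genes was not counted at that distance. Of the peaks themselves, 1.77% of the 113 and 2.58% of all 48295 lay within 1 kb. At least 2 peaks were assigned to 24 of the 34 (70.6%) and to 31.1% of all genes. A peak wider than the median of all peaks was assigned to 20 (58.8%) against 38.6% of all genes. By position alone, 25 (73.5%) had a peak in the gene or 10 kb to either side, against 49.2%, and by the closest protein-coding TSS of the reference 28 (82.4%) had one against 54.2%. The 7 genes without a peak were Itga3, Itga6, Itga7, Itgb4, Col4a1, Hspg2 and Fn1. The 34 genes also had longer stretches of chromosome from which to collect peaks, and their peak density was close to that of all genes.

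The central 200 bases of 7 peaks, among the closest to a TSS in their gene classes, are printed to show what lay under them. The bases are from the reference strand of mm9, and capitals mark the longest unbroken run of purines (A and G) or pyrimidines (C and T).
Itgb1, 1.91 kb upstream (chr8:131207548-131207747): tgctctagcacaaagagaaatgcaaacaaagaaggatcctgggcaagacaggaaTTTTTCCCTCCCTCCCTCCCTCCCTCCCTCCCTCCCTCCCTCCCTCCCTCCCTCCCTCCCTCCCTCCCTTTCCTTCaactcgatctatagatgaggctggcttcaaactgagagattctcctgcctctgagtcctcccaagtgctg
Lama5, 6.55 kb upstream (chr2:179967014-179967213): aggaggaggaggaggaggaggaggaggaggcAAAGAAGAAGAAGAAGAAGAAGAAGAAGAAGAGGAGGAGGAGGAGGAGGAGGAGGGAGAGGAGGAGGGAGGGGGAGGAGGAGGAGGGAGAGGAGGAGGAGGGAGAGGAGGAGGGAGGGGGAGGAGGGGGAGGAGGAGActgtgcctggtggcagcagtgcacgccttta
Nid1, 9.42 kb upstream (chr13:13520351-13520550): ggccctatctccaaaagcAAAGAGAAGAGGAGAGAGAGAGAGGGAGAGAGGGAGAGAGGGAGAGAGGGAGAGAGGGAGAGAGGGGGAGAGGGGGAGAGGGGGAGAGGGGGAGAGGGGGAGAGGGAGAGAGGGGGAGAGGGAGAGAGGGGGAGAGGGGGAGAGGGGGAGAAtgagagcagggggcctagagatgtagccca
Nid1, 32.4 kb downstream (chr13:13562145-13562344): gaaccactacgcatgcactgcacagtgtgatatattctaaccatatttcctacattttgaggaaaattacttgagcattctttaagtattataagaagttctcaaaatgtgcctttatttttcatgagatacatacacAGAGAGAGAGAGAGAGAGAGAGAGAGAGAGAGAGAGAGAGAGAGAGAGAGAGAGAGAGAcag
Hapln1, 2.08 kb upstream (chr13:89678066-89678265): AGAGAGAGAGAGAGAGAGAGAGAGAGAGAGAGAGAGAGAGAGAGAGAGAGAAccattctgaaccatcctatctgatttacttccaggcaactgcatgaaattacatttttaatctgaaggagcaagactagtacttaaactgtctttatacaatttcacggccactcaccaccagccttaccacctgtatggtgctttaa
Vcan, 8.06 kb upstream (chr13:89890077-89890276): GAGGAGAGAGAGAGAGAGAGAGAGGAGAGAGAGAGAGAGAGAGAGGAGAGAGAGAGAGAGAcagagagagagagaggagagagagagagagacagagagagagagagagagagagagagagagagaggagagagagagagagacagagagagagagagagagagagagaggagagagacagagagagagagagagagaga
Fbln2, 0.414 kb upstream (chr6:91162244-91162443): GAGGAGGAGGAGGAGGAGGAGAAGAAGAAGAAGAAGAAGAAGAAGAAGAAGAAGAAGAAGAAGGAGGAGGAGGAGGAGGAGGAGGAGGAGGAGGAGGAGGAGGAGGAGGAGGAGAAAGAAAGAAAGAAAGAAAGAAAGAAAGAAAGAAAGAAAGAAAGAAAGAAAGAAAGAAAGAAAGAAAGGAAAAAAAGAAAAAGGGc
In all 7 the window held such a run, of 52 bases in the Hapln1 peak to 199 bases in the Fbln2 peak. In 4 of the 7 at least 60% of the bases were the same as the base a fixed 1 to 6 positions further on, as in short units repeated in tandem. Shifted by 2 bases, the Vcan window matched itself at 89.9% of its bases. In the second Nid1 window the run took 59 bases near its end, and 53.5% of its bases matched at the best shift.

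**Figure D1:**
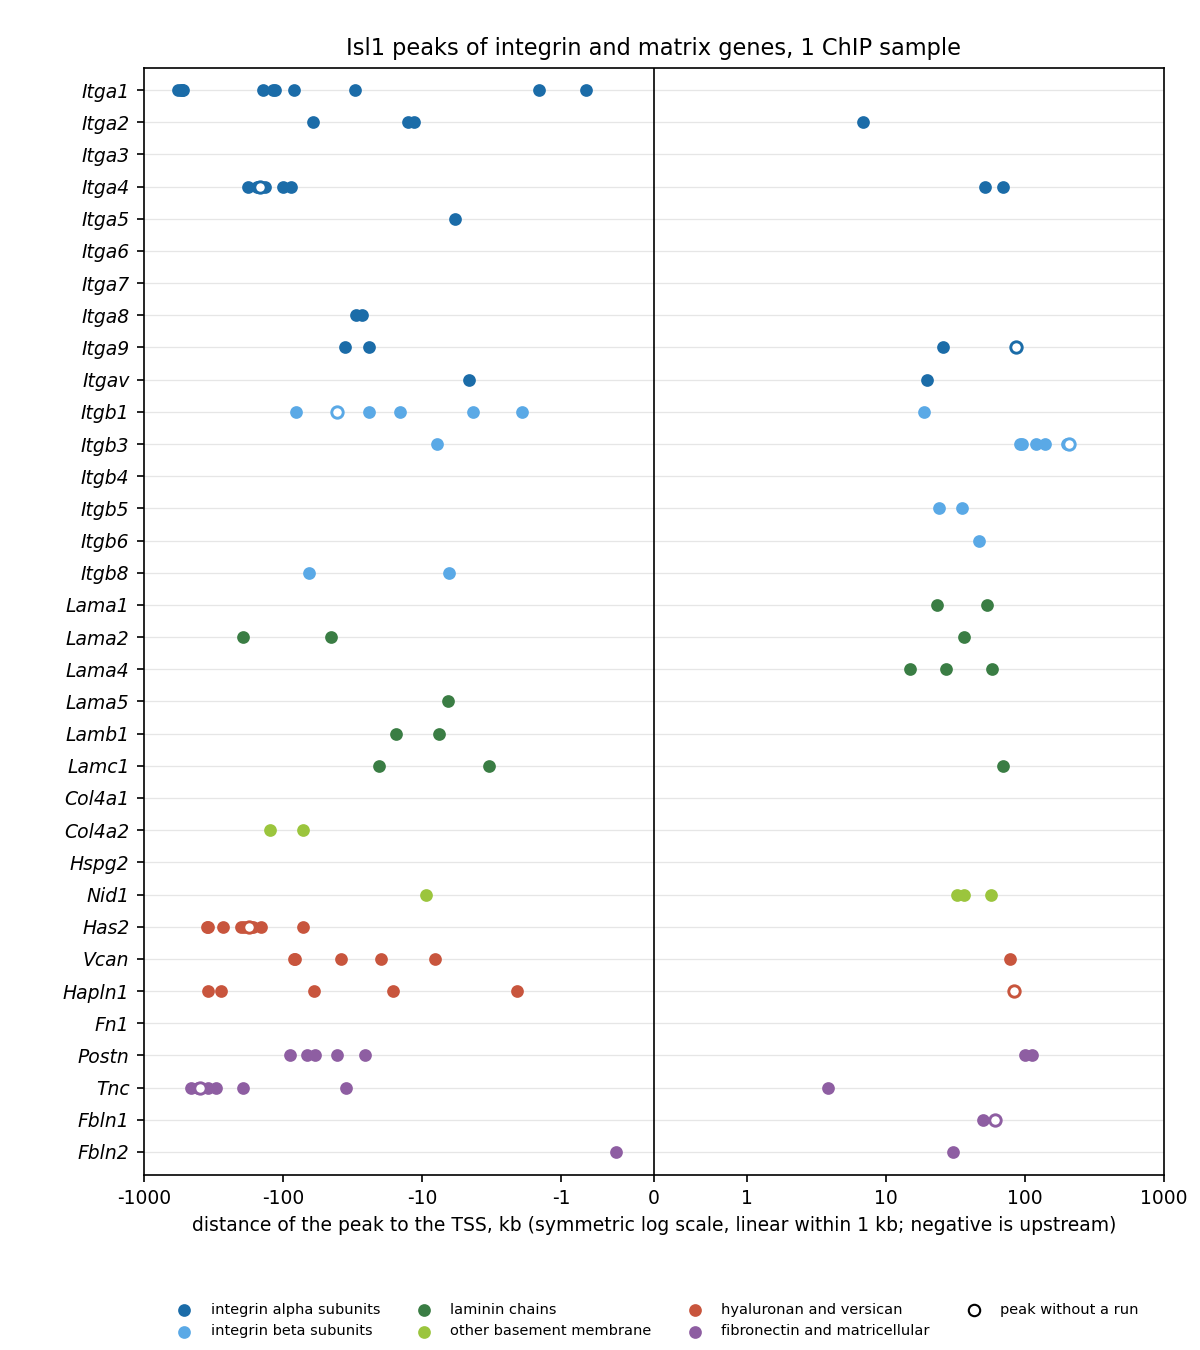
Position of each of the 113 peaks relative to the TSS of the gene it was assigned to, in kb on a symmetric log axis, with upstream to the left, 1 line per gene and colours for the 6 gene classes. Itga1 and Has2 have only upstream peaks, Lama1 and Lama4 only downstream ones, and the 7 genes without a peak have empty lines.

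The integrin alpha subunits decide which ligand a receptor holds, and 7 of 10 had a peak, 32 peaks in all. Of all protein-coding genes 52.8% had a peak, the share to set beside the count of each class below. Itga1, whose product is a collagen receptor, had the most of the 34 genes, with 11, and only 3.31% of all genes had as many. All 11 lay upstream of Itga1, from 0.728 kb to 566 kb, and the closest pair stood 0.728 and 1.45 kb from the TSS. The upstream stretch runs toward the Isl1 gene itself: the TSSs of Itga1 and Isl1 lay 1208 kb apart on chromosome 13, with 1 other protein-coding gene, Gm6404, between them. Of 27 peaks between the Itga1 TSS and Isl1, 16 were assigned to Isl1 and 11 to Itga1. The 4 farthest Itga1 peaks stood 526 to 566 kb from Itga1 and 642 to 682 kb from the Isl1 TSS. By the closest protein-coding TSS of the reference these 4 went to Gm6404, leaving 7 for Itga1. Its neighbour Itga2, which also encodes a collagen receptor, had 4 peaks, the closest 6.87 kb downstream in an intron, and the farthest, 61.0 kb upstream, inside an intron of Itga1.

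Itga4 and Itga5 encode fibronectin receptors, and Itga4 also binds Vcam1 on neighbouring cells. Itga4 had 8 peaks, of which none lay within 10 kb. The closest was 51.6 kb downstream in an intron, and 6 lay upstream at 87.1 to 179 kb. Itga5 had 1 peak, 5.83 kb upstream, with a run of 42 bases, among the shortest in any peak with a run. Itgav, the alpha partner of Itgb3, Itgb5, Itgb6 and Itgb8, had 2 peaks, 4.64 kb upstream and 19.7 kb downstream in an intron. Itga8, which encodes a nephronectin receptor, had 2 peaks assigned, at 27.0 and 29.9 kb upstream, while 5 other peaks lay inside the gene under other genes' names. By the reference Itga8 had 7. Itga9, a receptor subunit for tenascin C among others, had 4 peaks. For 3 of them the list used a TSS 105 kb inside the reference gene. The peak given as 24.3 kb upstream thus fell in an Itga9 intron, 1.56 kb from the nearest annotated Itga9 TSS. The remaining Itga9 peak, 35.9 kb upstream, was measured from the reference gene start and lay in an intron of Golga4.

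The integrin beta subunits carry the link to the cytoskeleton, and 5 of 6 had a peak, 19 peaks in all. Itgb1, the partner of most alpha subunits, had 7 peaks. They lay 1.91, 4.34, 14.5, 24.2, 41.2 and 80.2 kb upstream and 18.7 kb downstream, the last in an intron, so that 6 of 7 were upstream and 2 within 10 kb. Itgb3 also had 7, but only the peak 7.79 kb upstream was close. The other 6 Itgb3 peaks lay 92.7 to 207 kb downstream, 4 of them in introns of Gm11639, and the reference gave all 6 to Gm11639. Itgb5 had 2 peaks assigned, both in introns, 24.0 and 35.3 kb from the TSS, and 4 peaks lay inside the gene in all. Itgb6 had 1 intronic peak at 46.6 kb. Itgb8 had 2 upstream peaks at 6.39 and 64.7 kb.

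The 4 integrin genes with no peak, Itga3, Itga6, Itga7 and Itgb4, encode the subunits best known as laminin receptors, a grouping made after their values were seen. Peaks were present farther off under other genes' names. Measured to the nearest annotated TSS of each gene, the closest peak of any gene was 23.8 kb from Itga6, 28.3 kb from Itga3, 42.0 kb from Itga7 and 155 kb from Itgb4. The stretch of chromosome closest to their TSS was 18.5 kb for Itga7, 48.6 kb for Itgb4, 49.7 kb for Itga3 and 129 kb for Itga6. All 4 were shorter than the median of 134 kb over the 34 genes. Only that of Itga7 was also shorter than the median of 45.5 kb over all genes. Itga6 was among the genes with over 107 kb, of which 88.9% had a peak.

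All 6 laminin chains had a peak, but none had more than 3, and the 14 peaks were split evenly, 7 upstream and 7 downstream. The stretch closest to the TSSs of these 6 genes had a median of 142 kb. Of all genes with over 107 kb, 88.9% had a peak. Each of the 7 downstream peaks lay in an intron of its own gene. Lamc1, the gamma chain of most laminin trimers, had the closest, 3.31 kb upstream, with others 20.3 kb upstream and 69.5 kb downstream. Lama5 had 1 peak 6.55 kb upstream. Lamb1, a beta chain of early laminins, had 2 upstream peaks at 7.58 and 15.3 kb. The peaks of Lama1, an embryonic alpha chain, were intronic at 23.5 and 53.1 kb, and in both the run filled the whole central 200 bases. The 3 peaks of Lama4, an alpha chain of vessel basement membranes, were also intronic, at 14.8, 27.1 and 57.7 kb. Lama2, the alpha chain of muscle laminin, had 3 peaks, 36.4 kb downstream and 45.5 and 194 kb upstream. Counted by the closest protein-coding TSS of the reference, Lama4 had 23 peaks, the largest shift of the 34 genes between both ways of assigning a peak, and Lama2 had 10.

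In the other basement membrane genes 2 of 4 had a peak, near the 52.8% of all genes, and here the assignment decided which. The Col4a1 and Col4a2 genes, which encode the chains of the common collagen IV, start 21 bp apart and run in opposite directions. The list assigned 2 peaks to Col4a2, 72.5 and 124 kb upstream, and none to Col4a1, although the first lay in an intron of Col4a1. By the closest protein-coding TSS of the reference, Col4a1 had 3 peaks and Col4a2 had none. Nid1, a linker of laminin and collagen IV, had 4 peaks, 9.42 kb upstream and 32.4, 36.5 and 56.9 kb downstream in introns. Hspg2, the gene of perlecan, had none assigned, but 2 peaks lay in the gene or within 10 kb of it, the nearest 9.40 kb from any of its annotated TSSs, inside the gene and assigned to Ldlrad2.

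All 3 genes of the hyaluronan and versican matrix had several peaks, 22 in all, of which 20 lay upstream. Their median stretch was 428 kb, and 88.9% of all genes with over 107 kb had a peak. Has2, the enzyme that makes the hyaluronan of the cardiac jelly, had 10 peaks, and 3.87% of all genes had as many. None was near the gene: they lay 71.4, 143, 165, 172, 174, 191, 201, 271, 347 and 354 kb upstream, all between genes. By the closest protein-coding TSS of the reference it had 19. Vcan, the large proteoglycan bound to hyaluronan, had 6 peaks, 8.06, 19.6, 38.3, 82.5 and 84.0 kb upstream and 77.6 kb downstream, and the 3 farthest upstream lay in introns of Xrcc4. Hapln1, the link protein that fastens versican to hyaluronan, also had 6, with the closest 2.08 kb upstream. The Hapln1 and Vcan genes are neighbours whose ends lie 43.5 kb apart on chromosome 13, and their 12 peaks spread over 635 kb.

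Of the fibronectin and matricellular genes 4 of 5 had a peak, 20 peaks in all, 14 upstream. Fbln2, which encodes a fibulin of cushion matrix, had the peak closest to a TSS of all 113, 0.414 kb upstream, with a purine run of 199 of the 200 central bases. Its second peak lay 30.3 kb downstream in an intron. Tnc, the gene of tenascin C, had 9 peaks, 8 of them 35.3 to 459 kb upstream. The Tnc peak given as 3.85 kb downstream rested on a TSS 26.3 kb from the reference one. By the reference this peak lay between genes, 22.4 kb from the nearest Tnc TSS. Tnc thus counts among the 15 genes with a peak within 10 kb only by the TSS of the list. Postn, the periostin gene of maturing cushions and valves, had 7 peaks, of which the closest was 25.8 kb upstream and 3 lay in introns of Trpc4. Fbln1 had 2 intronic peaks at 49.8 and 60.8 kb, which lay 7.67 and 3.32 kb from the nearest annotated Fbln1 TSS. Fn1, which encodes fibronectin, had no peak. By the reference, Fn1 had a stretch of only 0.238 kb closest to its TSS, which left little room for a peak. The nearest peak lay 41.7 kb from its TSS and was assigned to Apol7d, whose TSS is 135 bp from that of Fn1 and which had 3 peaks. With peaks of such shared promoters credited to both genes, 29 of 34 genes (85.3%) had a peak against 54.8% of all genes.

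**Figure D2:**
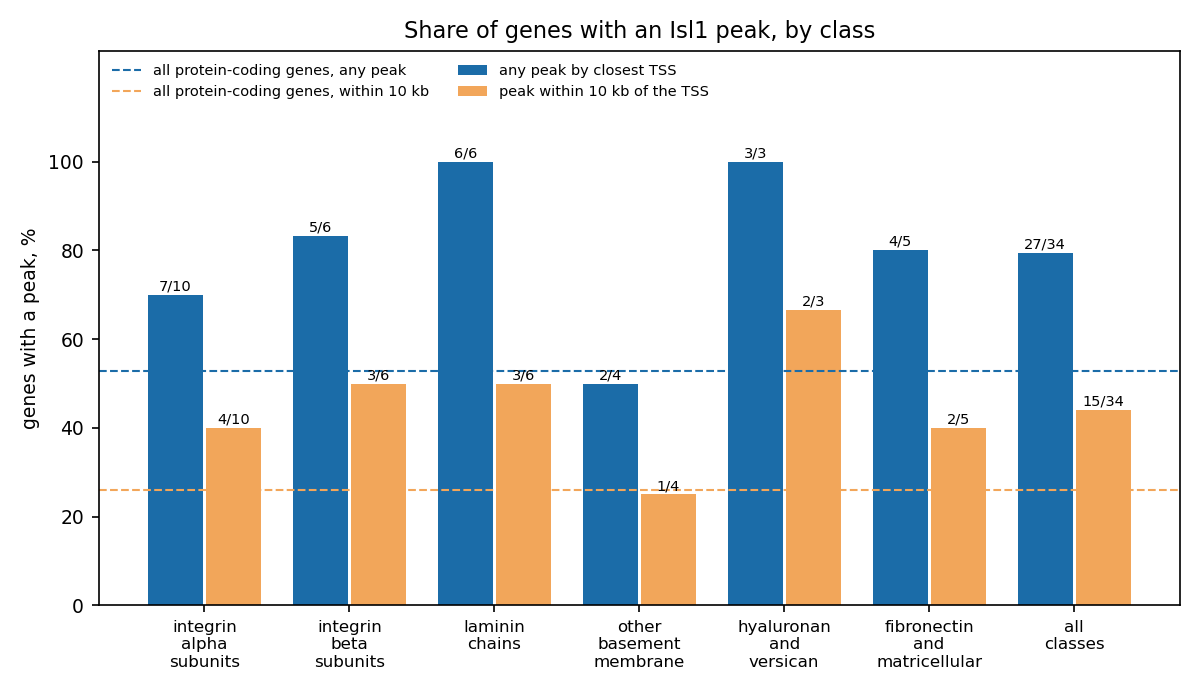
Percent of genes with any peak, and with a peak within 10 kb of the TSS, as bars for each of the 6 gene classes and for all 34 genes. Counts above the bars give the genes with such a peak and the genes in the class. Dashed lines mark the shares of all 20206 protein-coding genes, 52.8% and 26.1%. All laminin and all hyaluronan and versican genes had a peak. With 3 to 10 genes per class the 95% Wilson intervals, which are not drawn, are wide and overlap.

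Genes with distant neighbours collect more peaks when each peak goes to the closest TSS. The stretch of chromosome closer to a gene's TSSs than to those of any other protein-coding gene had a median of 134 kb in the 34 genes and 45.5 kb in all genes. The genes themselves were also long, with a median of 80.7 kb against 17.6 kb. Of all genes with a stretch over 107 kb, 88.9% had a peak, and 25 of the 34 genes were among these, 22 of them with a peak. At 45.5 to 107 kb the share was 63.3% and 4 of 6 of the 34 genes had a peak. Itga5 was alone at 21.8 to 45.5 kb, where 40.3% of all genes had a peak. Fn1 and Itga7 were among the genes with at most 21.8 kb, of which 18.7% had a peak. Per Mb of these stretches, with peaks assigned by the reference, the 34 genes held 17.6 peaks and all genes 18.3. By class the density ran from 14.4 peaks per Mb in the other basement membrane genes to 21.9 in the hyaluronan and versican genes.

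**Figure D3:**
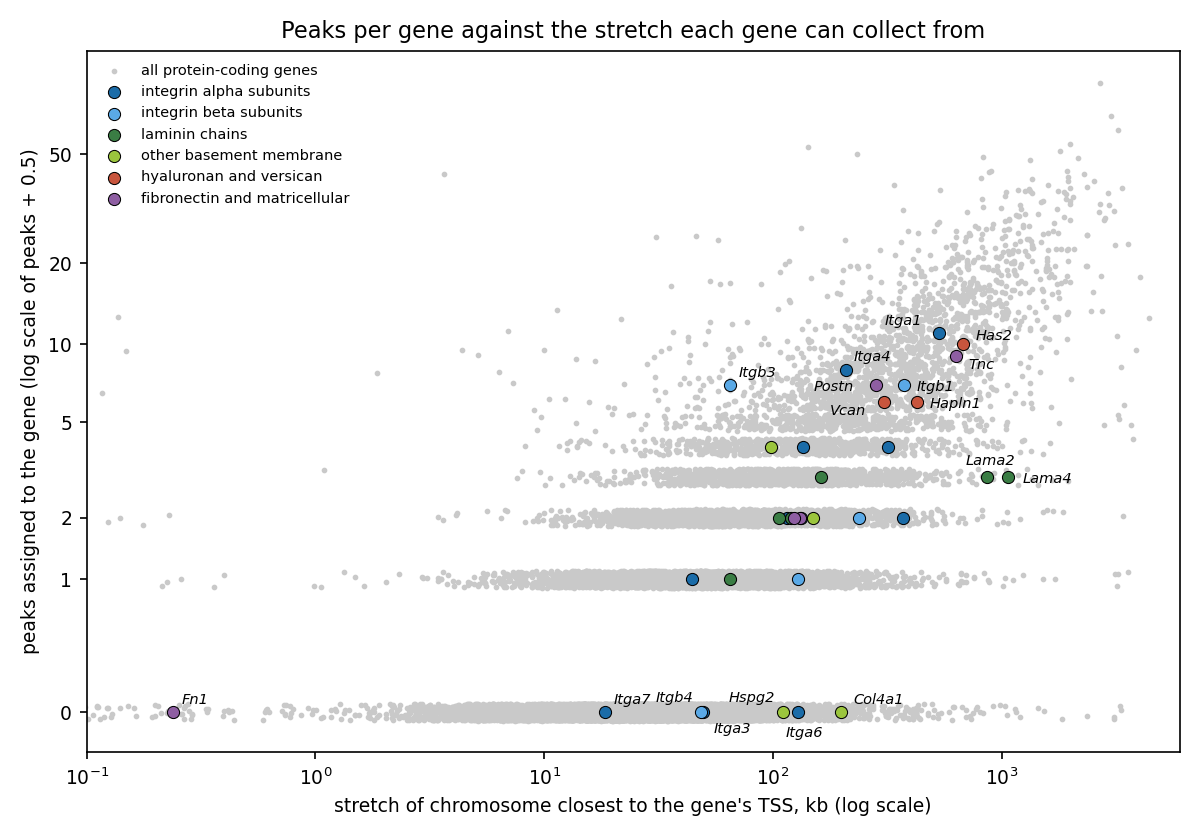
Peaks assigned to each gene against the stretch of chromosome closest to its TSS in kb, both on log axes (0.5 added to the count), with all protein-coding genes in grey, spread slightly up and down to show their number, and the 34 genes in colour. The coloured points lie within the grey cloud: Itga1, Has2 and Tnc, with 9 to 11 peaks, have long stretches, and Fn1 and Itga7, with none, have short ones. Col4a1, Itga6 and Hspg2, also with none, have stretches of 198, 129 and 111 kb.

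Upstream peaks outnumbered downstream peaks in the 34 genes by 79 to 34, which made 69.9% upstream (60.9% to 77.6%) against 47.5% of all 48295 peaks. Peaks of 1 gene share their gene, so they are not independent. Without Itga1, Has2 and Tnc the share was 60.2% of 83 peaks. Counted by gene, 17 of the 27 genes had more upstream than downstream peaks and 7 the reverse, and the closest peak lay upstream in 18 (66.7%) against 50.6% of all genes with a peak.

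In other respects of place and size the peaks of the 34 genes were close to all peaks. The median distance to the TSS was 60.8 kb against 58.8 kb, and the median of each gene's closest peak was 8.06 kb against 10.2 kb. Peaks were 282 to 935 bp wide with a median of 469 bp against 467 bp. An intron of the assigned gene held 25 of the 113 (22.1%, 15.5% to 30.6%) against 28.2% of all peaks assigned to protein-coding genes. None lay in an exon of its gene, where 1.10% of all such peaks lay. Another gene held 13.3% of the peaks against 8.26%, among them the Gm11639, Xrcc4 and Trpc4 introns named above, and 64.6% were between genes against 62.4%.

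Runs of purines or pyrimidines that reached 25 bases were present in the central 200 bases of 105 of the 113 peaks (92.9%, 86.6% to 96.4%) and of 94.1% of all peaks. In windows 1 kb to either side they were present in 3.98% and 3.95%. The interval for the integrin and matrix genes thus held the share of all peaks. On the reference strand 44 of the runs were purine and 61 pyrimidine, and 11 filled the whole window, in Has2, Itgb3, Lama1, Lama4, Vcan, Itga4 and Nid1. Alternating GA or CT repeats of at least 8 bases were present in 45.1% of the 113 (36.3% to 54.3%) against 56.1% of all peaks. The TAAT core of homeodomain sites, searched as TAAT and its reverse complement ATTA, was in the central 200 bases of 28.3% of the 113 (20.8% to 37.2%) and of 35.3% of all peaks, and in 75.7% and 73.4% of the windows 1 kb away. The part of these repeats in the calling of the peaks was not tested.

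The 8 peaks without such a run belonged to 8 genes, Itga4, Itga9, Itgb1, Itgb3, Has2, Hapln1, Tnc and Fbln1, which made 23.5% of the 34 genes against 9.84% of all genes. The 34 genes had more peaks each, with a median of 2 against 1. By peak, runs were in 92.9% of the 113 and in 94.1% of all peaks. The sequences of 3 of the 8 peaks, chosen after their values were seen, are printed. The first holds alternating CA and the second a unit of 6 bases, so a peak without a run could still hold a repeat. In the third, which matched itself little when shifted, capitals mark TAAT.
Has2, 174 kb upstream (chr15:56700384-56700583): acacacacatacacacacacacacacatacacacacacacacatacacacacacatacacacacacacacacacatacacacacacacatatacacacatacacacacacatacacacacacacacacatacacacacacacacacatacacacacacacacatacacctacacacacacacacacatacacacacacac
Itgb3, 207 kb downstream (chr11:104676160-104676359): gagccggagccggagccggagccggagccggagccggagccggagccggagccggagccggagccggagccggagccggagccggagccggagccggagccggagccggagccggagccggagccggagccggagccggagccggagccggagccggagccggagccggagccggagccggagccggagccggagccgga
Itgb1, 41.2 kb upstream (chr8:131168271-131168470): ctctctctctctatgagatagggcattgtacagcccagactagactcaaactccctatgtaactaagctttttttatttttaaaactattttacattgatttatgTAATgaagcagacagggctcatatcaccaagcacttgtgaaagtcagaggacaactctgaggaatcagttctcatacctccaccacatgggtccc
In 5 of the 8, those of Itga4, Itga9, Itgb3, Has2 and Hapln1, the window matched itself at 60% or more of its bases when shifted by 1 to 6 positions, with values of 85.9% to 100% at the best shift. By this measure, which was added after the data were seen, the share was 62.5% of the 8 (30.6% to 86.3%). Of all peaks without a run it was 24.0%. Over all peaks the share was 67.3% of the 113 and 64.9% of the 48295, with 1.33% and 1.32% in the windows 1 kb away. In the remaining 3, of Itgb1, Tnc and Fbln1, the match was 35.4%, 44.9% and 42.9%, and each held at least 1 TAAT core. These 3 peaks, 41.2 kb upstream of Itgb1, 393 kb upstream of Tnc and 60.8 kb downstream of Fbln1, still held short alternating repeats, CT over 12 bases for Itgb1, CA or TG over 28 bases for Tnc and over 16 bases for Fbln1.

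Among a wider list of 82 other adhesion and matrix genes found in the reference, 54 had a peak (65.9%, 55.1% to 75.2%) against 52.8% of all genes, 203 peaks in all. Their median stretch was 90.4 kb, and they held 21.3 peaks per Mb against 18.3 for all genes. Of the other integrins 5 of 10 had a peak, with most in Itga11 (7), a collagen receptor, Itgam (5) and Itgal (2), leukocyte subunits. Of the other basement membrane chains 10 of 13 had a peak, and Col15a1 had 7, Col18a1 6, Col4a6 6 and Nid2 6. Of the hyaluronan and proteoglycan genes 13 of 18 had a peak, led by Adamts5, a protease that cleaves versican, with 16, and Cd44, a hyaluronan receptor, with 6, while Adamts1, Lum and Tmem2 had 3 each. Of the fibrillar and other matrix genes 17 of 23 had a peak, and the fibrillar collagens Col1a2 and Col3a1 and the matricellular Ctgf had 8 each. Of the cytoplasmic partners of integrins 9 of 18 had a peak, with Tln2, a talin, at 5 and Fermt1, a kindlin, at 4 and Vcl, Ptk2 and Dag1 at 3 each. Purine or pyrimidine runs were in 188 of the 203 peaks, where all peaks had them in 94.1%.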

How the data were processed

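Isl1 ChIP-Seq peaks of 1 sample were analysed. Per the authors' methods, Bowtie2 aligned the reads (mm9), Picard 1.136 took out duplicates, MACS called the peaks, blacklisted regions were dropped, and HOMER gave every peak its closest TSS. The deposited values are peak positions and distances to the TSS in bp, with no score, count or p-value, so no test was made. Whether replicates were pooled for the list is not given in the sources used here. The list's extra header line was skipped.

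Peaks were matched to genes by symbol and, in the reference (GENCODE annotation of the mm9 assembly), by RefSeq name, which placed 86.8% of peaks. Of the 113 peaks, 93 had the same closest gene in the reference. The background was 20206 protein-coding genes with a RefSeq mRNA. A peak was placed by its midpoint. Sequence was read from the central 200 bases and from windows 1 kb to either side. Intervals are 95% Wilson intervals. The best match of a window to itself shifted by 1 to 6 bases was added after the data were seen. The scripts were tested on simulated data and used Python 3.11.15, pandas 2.3.3, scipy 1.17.1 and pysam 0.24.0.

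The genes and lists were chosen with earlier results of these data known. All 34 genes are accounted for. Those with a peak within 10 kb, the 3 with the most peaks in each class, and Fn1, Has2, Vcan, Itga4, Itga5, Itgb1 and Hapln1 were to be described in full, with sequences of the 2 peaks closest to a TSS per class and, of the wider list, the 3 genes with the most peaks per class. Of those sequences, 5 are not reported here. The alternatives were other distance limits, another assignment, stricter peaks and other definitions of the sequence features. Expression was not analysed here.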

Additional observations from a re-analysis of the deposited data

How the results depend on the processing

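Of 21 values under other settings, 13 were counted as close to the reported value and 8 as moved. The limit was loose: 20 genes against 27 and 148 peaks against 113 were counted as close. The 27 genes with a peak became 15 with peaks within 10 kb only and 8 with peaks free of a purine or pyrimidine run. Over all protein-coding genes the shares under the same settings were 26.1% and 9.84%. The count was 28 with the closest protein-coding TSS of the reference, 25 with peaks in the gene or 10 kb to either side, 24 with at least 2 peaks, 20 with peaks wider than the median, and 29 with shared promoters credited to both genes (54.8% of all genes), which was added once the data had been seen. The 113 peaks became 17 within 10 kb (15.0%, against 15.9% of all peaks) and 75 within 100 kb (66.4% against 62.5%). They became 57 wider than the median, 8 without a run and 66 in the gene or 10 kb to either side. By the closest reference TSS they became 148. The TAAT core was in 81.4% of whole peaks against 28.3% of their central 200 bases, and in 82.8% of all whole peaks. No paired analysis was possible because there was 1 peak list of 1 sample and nothing to pair it with. Without heights, read counts or a second list, neither the strength of a peak nor its repeatability could be measured, and a gene without a peak is one to which none was assigned.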
